A study of Mus musculus with 32 samples.

Results

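The autosomal distribution of H2AK119ub peaks was compared between 3 libraries of mouse HoxB8 cells carrying an Asxl1 guide RNA and 2 libraries of the same cells carrying a non-targeting guide, 5 of the 32 samples of the study. The members were chosen by their labels: H2AK119ub peak lists titled for the Asxl1 guide B2 with empty vector (replicates 1 to 3), against those titled for the non-targeting guide with empty vector (replicates 1 and 2). HoxB8 cells are mouse bone marrow progenitors immortalised by an estrogen-dependent Hoxb8, and every library used here was made 48 h after estrogen was withdrawn. The study crossed the Asxl1 guide, designed to truncate Asxl1, with overexpression of the CSF3R T618I receptor, and mapped H2AK119ub, H3K27me3 and H3K4me1 by CUT&Tag, in which an antibody directs a transposase to cut and tag the DNA around a histone mark. Cells of both groups compared here carried the pMICH-Empty vector in place of CSF3R T618I. Cells with the receptor and either guide (called double for the Asxl1 guide and CSF3R for the non-targeting guide) gave the other 5 H2AK119ub libraries. Whether the edited cells were 1 clone or a pool is not given in the sources used here.

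H2AK119ub is ubiquitin on a lysine near the end of histone H2A, placed by the Polycomb complex PRC1 through its Ring1 ligases and removed by the deubiquitinase Bap1, which needs an Asxl protein for its activity. The mark lies mainly over CG-rich promoters of genes that are silent in the cell, often together with H3K27me3, the mark of the other Polycomb complex, PRC2. Truncating mutations of ASXL1 are frequent in human myeloid neoplasms, where the shortened protein can still bind BAP1.

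Each deposited list gave only the start and end of every peak, so the sequencing depth behind a list is unknown and no read count or peak height could be compared. The measurements are therefore how many peaks were called, how wide they were and which bases they covered. The labels do not say that replicates came from separate cultures, so p-values measure the spread between these libraries, which may be technical. With 3 libraries against 2, the exact permutation test has 10 arrangements and its smallest two-sided p is 0.1, so no measure of whole libraries could pass 0.05. No peak lay in the 10 kb window at the start of Asxl1 itself in any of the 5 libraries, and the edit could not be checked from these lists.

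H2AK119ub peaks were fewer, on average narrower, and covered less of the genome in every Asxl1 guide library than in either control library. The Asxl1 guide libraries had 10796, 11542 and 14958 autosomal peaks, against 16840 and 16768 in the control libraries. These peaks covered 11.7, 13.3 and 16.6 Mb with the Asxl1 guide, against 20.9 and 19.7 Mb in the control. The third Asxl1 guide library lay nearest to the controls in both measures, and the groups did not overlap. The covered length averaged 13.9 ± 2.47 Mb with the Asxl1 guide and 20.3 ± 0.859 Mb in the control (SD, n = 3 and 2), a ratio of 0.683 (exact permutation p = 0.2).

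Peak width differed by less than peak number. The mean width was 1088, 1154 and 1109 bp in the Asxl1 guide libraries, against 1243 and 1176 bp in the control libraries, a ratio of 0.923 (exact permutation p = 0.1). The median width was 500 bp in all 3 Asxl1 guide libraries, against 550 and 500 bp in the control, so the groups overlapped at the median. The difference lay among wide peaks: 271, 349 and 430 peaks exceeded 5 kb with the Asxl1 guide, against 662 and 571 in the control, a ratio of 0.568 (exact permutation p = 0.1). Such peaks held 19.97, 22.01 and 21.57% of the covered length with the Asxl1 guide, against 26.6 and 23.9% in the control. A list with fewer narrow peaks has a larger mean width for that reason alone, so widths were also compared over regions that all 5 libraries covered, where the log2 ratio of mean widths was -0.39, against -0.12 over all peaks.

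**Figure D1:**
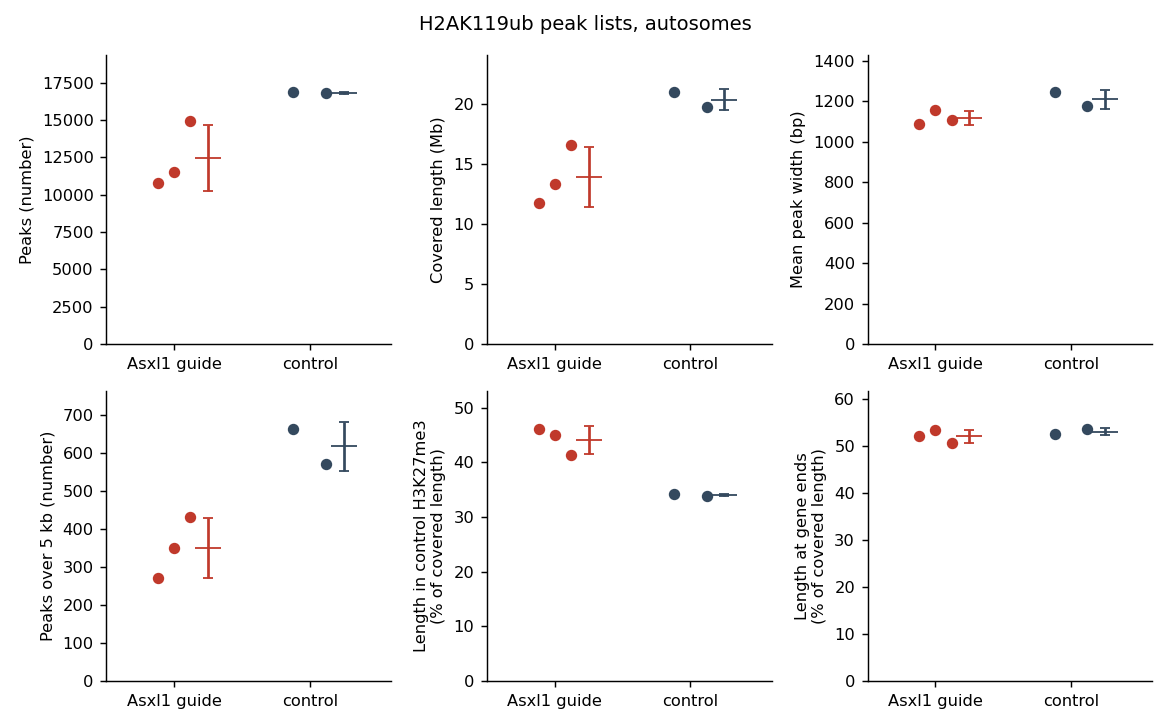
Each panel plots 1 measure of the H2AK119ub peak lists on the autosomes for the 3 Asxl1 guide libraries (red, left) and the 2 control libraries (dark blue, right), with the group mean ± SD beside the points. The groups do not overlap in peak number, covered length, mean width, number of peaks over 5 kb or share of length in control H3K27me3, and overlap in the share of length at gene ends.

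The presence of peaks was then followed region by region, after peaks of the 5 libraries were merged into 29188 autosomal regions. Of these, 8476 (29.0%) had a peak in 1 control library alone and 6171 (21.1%) in 1 Asxl1 guide library alone. All 5 libraries had a peak in 4745 regions (16.3% of all). Their median width was 2700 bp, and 57.7% of them touched H3K27me3 that both control libraries shared. Both control libraries and no Asxl1 guide library had a peak in 2106 regions (7.22% of all). These were narrower, with a median of 750 bp, and 7.74% of them touched control H3K27me3. The opposite pattern, a peak in all 3 Asxl1 guide libraries and in neither control, occurred in 389 regions (1.33% of all). Their median width was 950 bp, and 30.3% of them touched control H3K27me3. These 2 counts cannot be set against each other, since the Asxl1 guide lists were shorter and 1 more of them had to hold a peak.

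Of the 11191 regions present in both control libraries, 55.8, 61.1 and 66.5% were overlapped by a peak in Asxl1 guide libraries 1, 2 and 3. Of the 6685 regions present in all 3 Asxl1 guide libraries, the control libraries overlapped 87.2 and 86.3%. Most of what the guide libraries shared was thus also in the control lists. These shares cannot be set against each other, since the control lists were longer and Asxl1 guide regions had to be in all 3 libraries. Of the covered length of control library 2, 67.9% lay inside control library 1. Of that of an Asxl1 guide library, 63.5 to 73.9% lay inside a control library. The share of covered length that lay in control H3K27me3 was 46.1, 44.9 and 41.2% with the Asxl1 guide, against 34.2 and 33.9% in the control, a difference of 10.0 percentage points (exact permutation p = 0.1). The part of control H3K27me3 that H2AK119ub covered was not higher: it was 39.7, 43.8 and 50.1% with the Asxl1 guide, against 52.5 and 49.01% in the control, with overlapping groups (exact permutation p = 0.3). The share in control H3K4me1, a mark of enhancers, was 2.62, 2.76 and 2.404% with the Asxl1 guide, against 3.54 and 3.68% in the control (exact permutation p = 0.1). The share in IgG peaks, the antibody background, was 5.45, 5.19 and 4.93% with the Asxl1 guide, against 4.13 and 4.53% in the control. The IgG list was pooled from Asxl1 guide cells and CSF3R cells, with none from control cells. It held 52841 autosomal peaks that covered 20.8 Mb. The part of the background in these differences was not tested.

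Wide domains of the mark were present in both groups, and less of their length was covered with the Asxl1 guide. For this, peaks of all 10 H2AK119ub libraries were merged and the 29020 regions seen in at least 2 libraries were sorted by width. The 100 regions of 20 kb and over were present in 98.7 ± 0.577% with the Asxl1 guide and in 99 ± 0% in the control on average (SD, n = 3 and 2). Peaks covered 55.2, 59.3 and 62.7% of their length with the Asxl1 guide, against 71.1 and 66.9% in the control, a ratio of 0.856 (exact permutation p = 0.1). Each such domain was split into 4.69 ± 0.0520 peaks with the Asxl1 guide and 4.28 ± 0.193 peaks in the control (SD, exact permutation p = 0.1). For the 13254 regions of 1 to 5 kb the ratio of covered length was 0.629, for the 2014 regions of 5 to 20 kb 0.700, and for the 13652 regions under 1 kb 0.636.

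Around start sites the covered share was lower with the Asxl1 guide at every distance examined, and relatively more so on the flanks than at the centre. Over 2014 autosomal protein-coding genes with a listed start site and peaks over at least 0.2 of the surrounding 10 kb in at least 2 of the 10 H2AK119ub libraries, the first 500 bases after the start were covered in 41.1, 47.1 and 52.6% of bases with the Asxl1 guide, against 55.1 and 59.3% in the control. The ratio of group means was 0.820 there. It was 0.583 in the 500 bases from 5.0 to 4.5 kb upstream, where the Asxl1 guide libraries had 6.10, 7.28 and 8.06% of bases covered, against 12.7 and 11.8% in the control. Peak cover was thus lower over the whole span, and the 500-base bin with the ratio nearest to 1 was the one that starts at the start site.

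**Figure D2:**
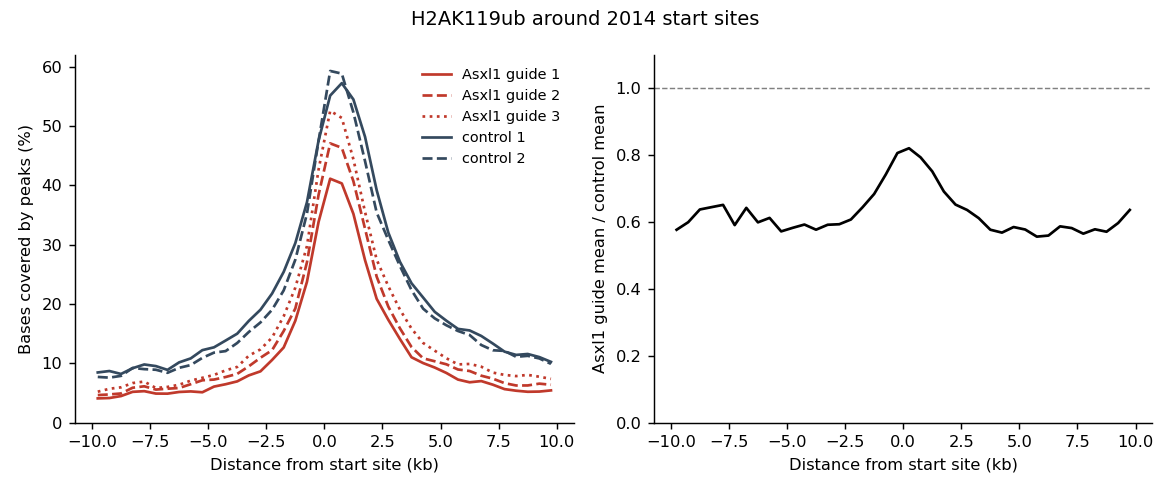
The left panel plots the percent of bases covered by H2AK119ub peaks in 500-base bins from 10 kb upstream to 10 kb downstream of 2014 start sites, for each Asxl1 guide library (red) and control library (dark blue). The right panel plots the ratio of the group means, which is 0.820 just after the start site and 0.583 in the bin from 5.0 to 4.5 kb upstream.

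Chromosome 1 ran against every other autosome. The covered length on chromosome 1 was 1.44, 1.48 and 1.92 Mb in the Asxl1 guide libraries, against 1.21 and 1.08 Mb in the control libraries, a ratio of group means of 1.41. On each of the other 18 autosomes all 3 Asxl1 guide libraries lay below both control libraries, with ratios between 0.526 and 0.787. Chromosome 1 was picked out after its values were seen, so these are a description with no test.

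Chromosome 1 held 12.2, 11.1 and 11.6% of the H2AK119ub length in Asxl1 guide libraries 1 to 3, against 5.79 and 5.47% in the control libraries. The double and CSF3R libraries, which share no sample with this comparison, had the same order: 11.8 and 11.8% in the double libraries, against 5.54, 5.19 and 5.45% in the CSF3R libraries (exact permutation p = 0.1, the smallest that 10 arrangements allow). The other marks moved with it. The share of H3K27me3 length on chromosome 1 averaged 13.5 ± 1.06% with the Asxl1 guide and 6.15 ± 0.135% in the control (SD, n = 3 and 2), and that of H3K4me1 averaged 8.35 ± 0.212% with the Asxl1 guide and 6.61 ± 0.0749% in the control. The groups did not overlap in either mark. The Asxl1 guide and double cells carry the same guide B2, and the labels do not say whether they came from 1 edited population. These libraries and marks may therefore not be independent repeats. The lists hold no read depth, so the amount of chromosome 1 DNA in the cells was not measured.

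The excess ran along the whole of chromosome 1. In bins of 10 Mb, the Asxl1 guide mean lay above the control mean in 20 of 20 bins of chromosome 1, with ratios from 1.09 to 6.21 and a median of 1.61, and in 48 of 237 bins of the other autosomes, where the median ratio was 0.756. All 3 Asxl1 guide libraries exceeded both controls in 15 of the 20 bins of chromosome 1 and in 15 of the 237 others, and lay below both in 0 bins of chromosome 1 and 121 of the others. Of the 389 regions present in all 3 Asxl1 guide libraries and in neither control, 133 (34.2%) lay on chromosome 1, which held 8.91% of all regions. Of the 2106 regions present in both controls and in no Asxl1 guide library, 42 (1.99%) lay there. Without chromosome 1, the log2 ratio of covered length was -0.66, against -0.56 with it.

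**Figure D3:**
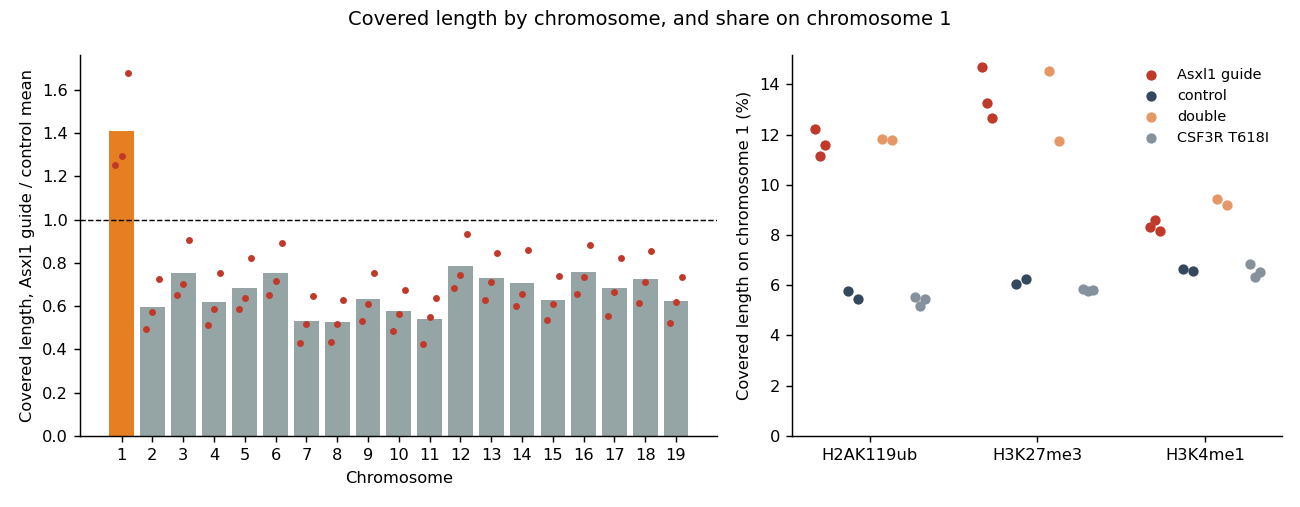
The left panel plots, for each autosome, the H2AK119ub covered length of the Asxl1 guide libraries divided by the control mean (bars, ratio of means, and red points, each Asxl1 guide library), with chromosome 1 in orange at 1.41 and the other 18 between 0.526 and 0.787. The right panel plots the percent of covered length on chromosome 1 in every library of each mark, where Asxl1 guide and double libraries lie above control and CSF3R libraries.

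At genes, H2AK119ub cover was measured as the fraction of a 10 kb window covered by peaks. The window was centred on the listed start site of 16457 of 20665 autosomal protein-coding genes, and for the other 4208 on the gene end with the higher mean cover over all 30 mark libraries. A peak lay in the window of 3230, 3543 and 4051 genes in the Asxl1 guide libraries, against 4717 and 4837 genes in the control libraries. The 2794 windows covered to at least 0.2 in at least 2 of the 10 H2AK119ub libraries were tested with limma on all 10 libraries, with Benjamini-Hochberg adjustment and a threshold of 0.05. Lower cover with the Asxl1 guide passed in 181 windows, 6.48% of those tested, and higher cover in 17, 0.608%. Windows of neighbouring genes can overlap, so these are counts of windows and not of separate loci. Before adjustment 714 windows had p under 0.05, and the median difference over all 2794 windows was -0.08. The windows lower in all 3 Asxl1 guide libraries than in both controls numbered 1246, 44.6% of those tested, and those higher in all 3 numbered 169, 6.05%.

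The counts rested on each of the 5 libraries. Without Asxl1 guide library 1, 2 or 3 the number of lower windows was 7, 39 or 101, without control library 1 or 2 it was 11 or 13, and without CSF3R library 1 it was 280. The number of higher windows was 0, 1 and 6 without Asxl1 guide libraries 1, 2 and 3, and 0 without either control library. With the covered length of each library as a covariate, 6 windows were lower, all among the 181, and 4 were higher. That covariate differs between the groups without overlap, so an effect of the guide and one of the covered length cannot be told apart in these lists. When every list was cut to the same number of widest peaks, 163 windows were lower, of which 154 were among the 181. The cut, at 10796 peaks, left Asxl1 guide library 1 whole and kept only the widest peaks of the longer control lists. Under it the log2 ratio of median widths went from -0.07 to -0.84. It therefore cannot separate list length from the guide.

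Chromosome 1 stood apart at genes too. Of its 195 tested windows, limma called 0 lower (6 at an unadjusted p under 0.05) and 8 higher, with a median difference of 0.03. The other autosomes had 181 of 2599 windows called lower and 9 called higher, with a median of -0.09. On chromosome 1, 69 windows (35.4%) were higher in all 3 Asxl1 guide libraries than in both controls, against 100 (3.85%) on the other autosomes.

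The windows with the largest decreases belonged to genes of several kinds. Tedc1, a centriole component, is the gene with the largest decrease: 0.012, 0.065 and 0.27 of its window were covered in the Asxl1 guide libraries, against 0.76 and 0.885 in the control libraries. The difference was -0.71 ± 0.0791 (SE, limma adjusted p = 0.00390), and the window was called in all 10 fits that left out 1 library. Egfl7, a secreted protein of endothelium whose gene also hosts a microRNA, had no covered base in any of the 3 Asxl1 guide libraries, against 0.615 and 0.783 in the control libraries (limma adjusted p = 0.0141). Tmem200b, a transmembrane protein gene, likewise had none of its window (chr4:131916771-131926770) covered with the Asxl1 guide, against 0.643 and 0.508 in the control (limma adjusted p = 0.00333). In these 3 windows no Asxl1 guide library came near a control library.

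Sema6b, a transmembrane semaphorin, had 0.175, 0.24 and 0.285 of its window (chr17:56135343-56145342) covered with the Asxl1 guide, against 0.956 and 0.73 in the control (limma adjusted p = 0.00479), and the sign turned when peaks overlapping IgG peaks were removed. The same turn of sign applied to Rsph6a, a radial spoke protein of the sperm tail, whose difference was -0.57. Such removal dropped each overlapping peak whole, however short its overlap with an IgG peak. The other large decreases were at Kif19a, a ciliary kinesin, Slc34a3, a phosphate transporter, Rnf224, Npdc1 and Tppp3, a tubulin-binding protein, with differences between -0.66 and -0.58. The windows of Slc34a3 (chr2:25229234-25239233) and Rnf224 (chr2:25231787-25241786) overlap, so they are not separate loci. Npdc1 and Egfl7 also lie on chromosome 2. Of the 181 lower windows, 6 stayed called in all 10 fits that left out 1 library: Tedc1, Tmem200b, Sema6b, Snai3, Bhlha15 and Xirp1, the last 3 named after their values were seen. Snai3 is a Snail family repressor, Bhlha15 a transcription factor of secretory cells and Xirp1 an actin-binding protein of striated muscle.

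The increases were led by En1 and Pax9. En1, a homeobox gene of brain and limb patterning on chromosome 1, had 0.809, 0.885 and 0.75 of its window covered with the Asxl1 guide, against 0.145 and 0.37 in the control (difference 0.56 ± 0.0998 SE, limma adjusted p = 0.0173). Pax9, a paired-box gene of tooth and skeletal development on chromosome 12, had 0.56, 0.673 and 0.663 with the Asxl1 guide, against 0.278 and 0.18 in the control (limma adjusted p = 0.0164). Epha7, an ephrin receptor gene on chromosome 4, had 0.31, 0.325 and 0.315 with the Asxl1 guide and none in either control (limma adjusted p = 0.0144). All 3 Asxl1 guide libraries were above both controls at these genes.

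Other increases among the 10 largest were at Bcl11a, a repressor of fetal globin genes, Pcdh7, a protocadherin, and, on chromosome 1, Gli2, the Hedgehog effector, Lmx1a, a LIM homeobox factor, Mroh2a and Ecel1, a metallopeptidase, with differences from 0.29 to 0.35. At Ecel1 the sign turned when peaks overlapping IgG peaks were removed. None of the 17 increases was called in all 10 fits that left out 1 library.

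**Figure D4:**
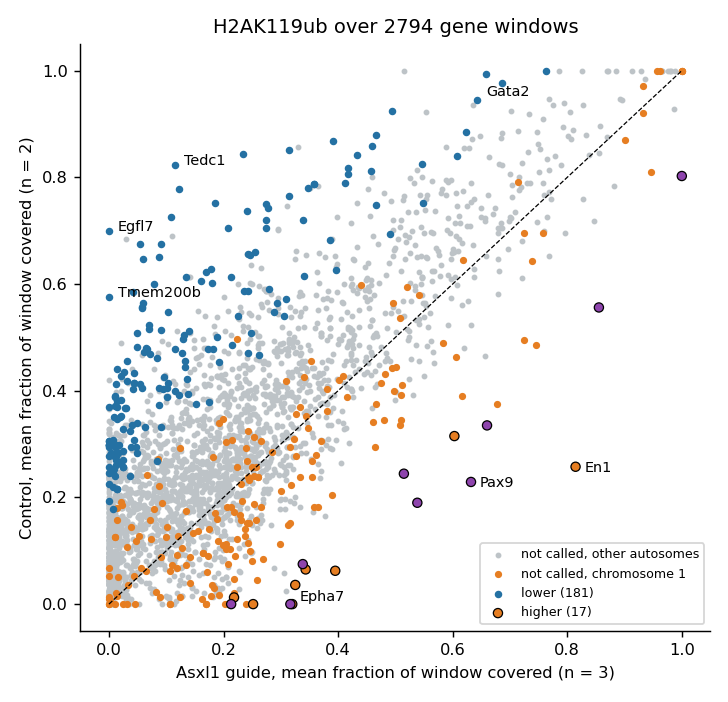
Each point is 1 of 2794 gene windows, with the mean fraction covered in the Asxl1 guide libraries (n = 3) on the horizontal axis and in the control libraries (n = 2) on the vertical axis; points above the dashed line are lower with the Asxl1 guide. Blue marks the 181 lower windows, outlined points the 17 higher ones, and orange chromosome 1, whose windows lie around and below the line.

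The sequences just upstream of 6 of these genes are shown because PRC1 can be recruited to unmethylated CG-rich DNA. They belong to the decreases and increases first in size with a listed start site, and to Hoxa9 and Gata2, regulators of blood progenitors. Each is the 250 bases before the first listed start site, 5′ to 3′ on the strand of the gene, from RefSeq on GRCm38.p6, with CG dinucleotides in capitals. Tedc1 lies at chr12:113156171-113156420 on the plus strand, Egfl7 at chr2:26580833-26581082 on the plus strand, and En1 at chr1:120602237-120602486 on the plus strand. Pax9 lies at chr12:56695221-56695470 on the plus strand, Hoxa9 at chr6:52227371-52227620 on the minus strand, and Gata2 at chr6:88193641-88193890 on the plus strand.
Tedc1: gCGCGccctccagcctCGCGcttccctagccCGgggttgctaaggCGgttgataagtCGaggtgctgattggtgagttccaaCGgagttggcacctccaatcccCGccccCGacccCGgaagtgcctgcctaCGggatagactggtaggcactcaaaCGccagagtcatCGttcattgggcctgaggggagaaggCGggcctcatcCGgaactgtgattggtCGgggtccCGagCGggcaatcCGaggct
Egfl7: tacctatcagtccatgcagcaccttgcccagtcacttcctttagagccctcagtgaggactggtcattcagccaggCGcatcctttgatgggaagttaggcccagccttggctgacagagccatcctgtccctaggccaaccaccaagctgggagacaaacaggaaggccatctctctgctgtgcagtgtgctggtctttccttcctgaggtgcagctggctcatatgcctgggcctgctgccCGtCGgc
En1: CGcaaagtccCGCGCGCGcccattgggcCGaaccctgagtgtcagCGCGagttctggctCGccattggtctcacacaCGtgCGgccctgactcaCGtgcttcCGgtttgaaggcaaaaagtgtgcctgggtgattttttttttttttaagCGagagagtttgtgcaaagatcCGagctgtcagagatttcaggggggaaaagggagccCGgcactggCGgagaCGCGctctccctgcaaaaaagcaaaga
Pax9: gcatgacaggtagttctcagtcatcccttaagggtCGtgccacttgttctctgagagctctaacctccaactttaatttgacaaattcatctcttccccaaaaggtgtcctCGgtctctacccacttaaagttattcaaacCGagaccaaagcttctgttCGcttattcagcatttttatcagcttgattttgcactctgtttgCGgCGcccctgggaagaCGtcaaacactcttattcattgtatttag
Hoxa9: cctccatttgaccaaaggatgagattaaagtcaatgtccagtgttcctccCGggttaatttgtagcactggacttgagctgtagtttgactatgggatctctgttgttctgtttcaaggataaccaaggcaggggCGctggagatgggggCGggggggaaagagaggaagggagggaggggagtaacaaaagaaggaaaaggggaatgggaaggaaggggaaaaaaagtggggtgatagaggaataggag
Gata2: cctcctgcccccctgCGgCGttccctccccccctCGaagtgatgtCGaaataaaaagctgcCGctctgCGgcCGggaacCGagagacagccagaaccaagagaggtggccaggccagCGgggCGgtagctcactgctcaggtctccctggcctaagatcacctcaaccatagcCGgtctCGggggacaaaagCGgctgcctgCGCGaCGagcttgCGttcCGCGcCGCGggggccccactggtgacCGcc

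Over these stretches, peaks covered none of Egfl7 in the Asxl1 guide libraries and all of it in both control libraries, and the reverse at Pax9, where all 250 bases were covered in the 3 Asxl1 guide libraries and none in the controls. The En1 stretch was covered in Asxl1 guide library 1 alone. The Tedc1 stretch was uncovered in all 3 Asxl1 guide libraries and covered to 52 and 32% in the control libraries. All of the Gata2 stretch was covered in all 5 libraries and none of the Hoxa9 stretch in any, although both windows as a whole were marked. These stretches held 20 CG dinucleotides at Tedc1, 3 at Egfl7, 19 at En1, 7 at Pax9, 3 at Hoxa9 and 22 at Gata2. Lower peak cover was thus seen over a stretch with many and one with few.

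The 250 bases upstream of start sites held a median of 14 CG dinucleotides in the 127 lower windows with a listed start site, against 16 in all 2014 tested windows of that kind and 10 in all 16457 listed genes. A ratio of observed to expected CG of at least 0.6 was found in 48.8% of the lower windows, 58.2% of the tested and 46.6% of all listed genes. The 16 higher windows with a listed start site had a median of 13.

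The decrease was larger, as a description, where control cells lacked H3K27me3. In the 831 windows with no H3K27me3 peak in either control library, 81 (9.75%) were called lower, the median difference was -0.11, and the mean fraction covered was 0.081 with the Asxl1 guide, against 0.21 in the control. In the 1340 windows with at least 0.2 of their length in H3K27me3 in both controls, 53 (3.96%) were called lower, the median difference was -0.07, and the mean fraction was 0.311 with the Asxl1 guide, against 0.386 in the control. Leaving out chromosome 1, these shares were 10.5% and 4.23%. H3K27me3 itself overlapped between the groups at the 181 lower windows, where it covered 0.03, 0.162 and 0.067 of the window on average in Asxl1 guide libraries 1, 2 and 3, against 0.141 and 0.191 in the control libraries. Its cover at all tested windows ranged from 0.088 to 0.357 among the Asxl1 guide libraries, against 0.254 and 0.309 in the controls.

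The same windows were examined in the double and CSF3R libraries, which were not used in either group of this comparison but share the fit's estimate of the spread. Of the 181 lower windows, 159 (87.8%) were lower in double than in CSF3R cells, against 55.9% of all tested windows, and 61 of them were called lower there, where 5.51% of all tested windows were. Of the 17 higher windows, 17 were higher in double cells and 5 were called, against 44.1% and 3.58% of all tested windows. Chromosome 1 held 8 of the 17, and 90.8% of its windows were higher in double cells, against 40.6% on the other autosomes. The 2 differences themselves differed at 3 windows, 0.107% of those tested, by the limma interaction term. Tedc1 was covered to 0 and 0.025 in the double libraries, against 0.77, 0.875 and 0.775 in the CSF3R libraries, and Pax9 to 0.703 and 0.498 in double libraries, against 0.09, 0.153 and 0.16 in CSF3R libraries. Neither gene's groups overlapped in these libraries. Over whole libraries the decrease was not repeated there. Double libraries had 33763 and 25552 autosomal peaks, against 15596, 22966 and 25493 in CSF3R libraries. These covered 39.0 and 22.5 Mb in double libraries, against 18.6, 28.3 and 27.9 Mb in CSF3R libraries. The share of covered length in control H3K27me3 was 21.4 and 26.6% in double libraries, against 32.9, 26.4 and 24.8% in CSF3R libraries. The groups overlapped in covered length and in this share.

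**Figure D5:**
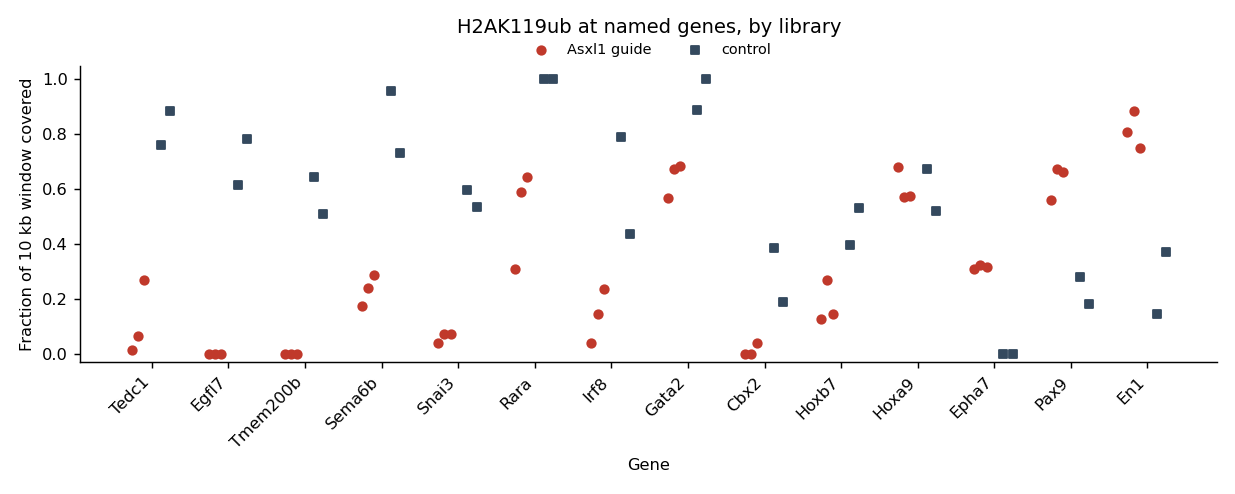
The fraction of the 10 kb window covered by H2AK119ub peaks is plotted for each Asxl1 guide library (red circles, left of each gene) and control library (dark squares, right of each gene). With the Asxl1 guide, Egfl7 and Tmem200b lie at 0 and Tedc1 between 0.012 and 0.27. Hoxa9 overlaps between the groups, and Epha7, Pax9 and En1 are higher with the Asxl1 guide.

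Gene groups were then followed, each to be read beside all tested windows, of which 6.48% were called lower and 0.608% higher, with a median of -0.08. The members lower in all 3 Asxl1 guide libraries than in both controls were 11 of 26 tested Hox genes, 36 of 124 developmental regulators, 9 of 29 signalling genes, 3 of 14 stem and progenitor genes, 8 of 17 myeloid transcription factors, 5 of 8 cytokine signalling genes, 3 of 7 cell cycle genes and 4 of 4 Polycomb genes, beside 44.6% of all tested windows. Among the Hox genes, the homeobox clusters that Polycomb complexes keep silent outside the embryo, 36 of 39 had a peak, 26 were tested and 0 passed limma's threshold in either direction, with 4 lower at an unadjusted p under 0.05 and a median difference of -0.09. Hoxa9, which immature myeloid cells express, had 0.68, 0.57 and 0.575 of its window covered with the Asxl1 guide, against 0.675 and 0.52 in the control, and the groups overlapped. Hoxb7 had 0.125, 0.27 and 0.145 with the Asxl1 guide, against 0.395 and 0.53 in the control (limma adjusted p = 0.115), and Hoxb6 and Hoxd3 also lay below both controls without passing, with differences of -0.27 and -0.16. At Hoxb8, whose transgene immortalises these cells, the fractions were 0.055, 0.49 and 0.095 with the Asxl1 guide, against 0.285 and 0.51 in the control, and the groups overlapped. A transgene copy and the native gene cannot be told apart in these lists. The Hoxb7 window overlaps those of Hoxb6 and Hoxb8, so these are not separate loci.

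Of 152 developmental regulators outside the Hox clusters, 124 were tested, 2 passed as lower (En2 and Tbx1) and 3 as higher (En1, Lmx1a and Pax9), with a median of -0.05. En2, the paralogue of En1, had 0.345, 0.36 and 0.53 of its window covered with the Asxl1 guide, against 0.805 and 0.775 in the control (limma adjusted p = 0.0334), opposite in direction to En1. Of 41 genes of Wnt, Fgf, Tgf-beta and Notch signalling, 29 were tested and 0 passed limma's threshold in either direction (3 lower and 1 higher at an unadjusted p under 0.05), with a median of -0.05. Fgf8, a growth factor of the embryo, differed by -0.31 and Fgf4 by -0.23, while Wnt6, on chromosome 1, differed by 0.26 (limma adjusted p = 0.0787, 0.113 and 0.0798).

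Of 26 genes of stem and progenitor cells, 14 were tested and 1, Gata2, passed as lower. Gata2, a transcription factor of stem cells and mast cells, had 0.566, 0.675 and 0.685 of its window covered with the Asxl1 guide, against 0.89 and 1 in the control (limma adjusted p = 0.0227). All 3 Asxl1 guide libraries lay below both controls, but the sign turned when each peak overlapping an IgG peak was removed whole. In double against CSF3R cells the difference was -0.06. Meis1, a Hox cofactor, had 0.195, 0.368 and 0.308 with the Asxl1 guide, against 0.563 and 0.383 in the control (limma adjusted p = 0.224). Sox4 was covered to between 0.075 and 0.115 with the Asxl1 guide and not at all in the controls (limma adjusted p = 0.316).

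Of 27 myeloid transcription factors, 17 were tested and 1, Fos, passed as lower, with a median of -0.06. Fos, an AP-1 subunit, had 0, 0.145 and 0 with the Asxl1 guide, against 0.295 and 0.27 in the control (limma adjusted p = 0.0445). Rara, the retinoic acid receptor that drives granulocyte maturation, had 0.31, 0.59 and 0.646 with the Asxl1 guide and was covered fully in both controls, a difference of -0.49 (limma adjusted p = 0.0541), and its sign also turned without peaks overlapping IgG peaks. Irf8, which directs monocyte and dendritic cell fate, had 0.04, 0.146 and 0.235 with the Asxl1 guide, against 0.791 and 0.435 in the control (limma adjusted p = 0.0881). The Asxl1 guide libraries were below both controls at Rara and Irf8, and neither passed. The same was true of Egr1, an immediate early gene, with a difference of -0.22 (limma adjusted p = 0.0677). Myc differed by -0.01, with overlapping groups.

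Genes of mature blood cells were then examined. None of 13 primary granule genes had a peak in any of the 5 libraries, and 6 of 20 late neutrophil genes and 13 of 24 genes of monocytes, macrophages and dendritic cells had one, beside 30.3% of all autosomal genes. Of these, 2 and 4 were tested and limma called 0 in either direction, also at an unadjusted p under 0.05. Mmp9, a gelatinase of late neutrophils, differed by -0.18, Csf1r, the macrophage growth factor receptor, by -0.19, and Batf3, a dendritic cell factor on chromosome 1, by 0.09 (limma adjusted p = 0.346, 0.290 and 0.427). Erythroid and megakaryocyte genes (4 of 19 tested, median -0.21) and lymphoid genes (10 of 26 tested, median -0.06) had 0 calls by limma, with 2 and 1 lower at an unadjusted p under 0.05. Their lowest p-values were at Epor, Zfpm1 and Gfi1b and at Cd4, Bcl11b and Ebf1, with differences between -0.34 and 0.14. At Cd4 the sign turned without peaks overlapping IgG peaks. Of 19 genes of mast cells, basophils and eosinophils, 4 were tested and Gata2, counted above, was the 1 that passed.

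Of 30 genes of cytokine signalling, 8 were tested and 0 passed limma's threshold (4 lower at an unadjusted p under 0.05), with a median of -0.17. Pim3, a STAT-induced kinase, differed by -0.32, Epor, the erythropoietin receptor, by -0.25 and Socs1, a feedback inhibitor, by -0.26 (limma adjusted p = 0.0835, 0.0605 and 0.156). At Socs1 the sign turned over a 2 kb window and over the whole gene. Csf3r, the receptor whose mutant form the other arm of the study expressed, had no peak in its window in any of the 5 libraries.

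Of 19 cell cycle inhibitors and cyclins, 7 were tested and 1 passed as lower. This was Cdkn2b, an inhibitor of Cdk4 and Cdk6, with 0.085, 0.09 and 0.075 of its window covered with the Asxl1 guide, against 0.225 and 0.31 in the control (limma adjusted p = 0.0438). Among all 10 libraries the controls alone reached the minimum of 0.2 at this window, so it was tested only through the group where it is high (2 of the 181 lower windows were of this kind), and the call held in 3 of 10 fits that left out 1 library. Cdkn1c and Cdkn1a, inhibitors of the Cip/Kip family, differed by -0.28 and -0.12 without passing. Cdkn2a, the neighbour of Cdkn2b, was not covered in any Asxl1 guide library, against 0.263 and 0.0382 in the control, and was under the minimum for testing. Of 40 genes of the Polycomb, Asxl and Bap1 complexes, 4 were tested and 0 passed limma's threshold (2 lower at an unadjusted p under 0.05), with a median of -0.15. Cbx2, a subunit of PRC1, had 0, 0 and 0.04 with the Asxl1 guide, against 0.385 and 0.19 in the control (limma adjusted p = 0.0602). Cbx8 differed by -0.19 and Phf19, a PRC2 cofactor, by -0.11. Bap1 had no peak in its window in these libraries. None of 33 ribosomal protein genes was covered enough to be tested.

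Among the 29020 merged regions, limma called 258 lower with the Asxl1 guide, 0.889% of those tested, and 40 higher, 0.138%. The lower regions had a median width of 950 bp and 1 of them lay on chromosome 1, while 17 of the 40 higher regions (42.5%) did. The number of lower regions was 137, 135 and 157 without Asxl1 guide libraries 1, 2 and 3, 447 and 480 without control libraries 1 and 2, and 456 without either double library. The number of higher regions was 72 and 68 without Asxl1 guide libraries 1 and 2, and 96 without either double library.

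A region needed a peak in only 2 of the 10 libraries, so it could be tested through the group where it is high. One group had no covered base in 189 of the 258 lower and 33 of the 40 higher regions, and with a peak required in at least 3 libraries 61 were lower and 12 higher. The lower regions first by size, then by p, were 4 short intervals that both controls covered fully and no Asxl1 guide library touched. They lie on mm10 at chr18:60911751-60912400 in Arsi, chr13:88821451-88822000 in Edil3, a secreted integrin ligand, chr3:129613701-129614050 in Elovl6, a fatty acid elongase, and chr7:139031301-139031650 in Jakmip3. In double and CSF3R cells the fitted difference was 0 at each of them. The 4 higher regions were chr6:103648951-103649350 in Chl1, chr1:90445601-90448700, whose nearest gene Cops8 is 154260 bp away, chr4:28812651-28815950 in Epha7 and chr12:8969801-8970200 in Matn3. The region on chromosome 1 was covered to 0.984, 1 and 0.984 in the Asxl1 guide libraries and not at all in the controls, and the one in Epha7 to 0.939, 0.985 and 0.955, against none in the controls. Both were also called higher in double cells (limma adjusted p = 0.000156 and 0.00945), while the one in Chl1 had a difference of 0 there. Values within a group were identical in several of these regions, so their p-values rest on the spread borrowed from other regions.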

How the data were processed

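CUT&Tag reads were aligned with Bowtie2 2.4.1 to mm10, and deepTools 3.5 was used, per the submitters' processing notes; which program called the peaks, and at which threshold, was not stated in the sources used here. The authors deposited peak positions only, with no count or other score, and every width is a multiple of 50 bp with a minimum of 200 bp. The IgG list pooled from Asxl1 guide cells and CSF3R cells served as background, and no IgG list came from control cells. Covered fractions of gene windows (RefSeq, GRCm38.p6) and of merged regions were computed in Python 3.11.15 and tested with limma 3.58.1 in R 4.3.3 over all 10 H2AK119ub libraries, with 1 mean per genotype. Whole-library measures were tested by exact two-sided permutation of 10 arrangements. Scripts were tested on simulated data. Genes were named by rule: the 10 largest decreases and increases past the threshold, up to 3 tested members of each list by lowest p, and 11 set genes; 4 of these with small, uncalled differences are not printed, and 1 other is not reported here, nor counted in its list. The members, lists and rules were chosen with earlier results of these data known. The alternatives tried were another window, measure, filter, peak minimum, IgG removal, covariate, equal peak numbers, fewer libraries and a replicate block. Sex chromosomes were left out of the main values.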

Additional observations from a re-analysis of the deposited data

Results flagged for a closer look

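The effect of the Asxl1 guide on H2AK119ub differed between cells without and with CSF3R T618I at 3 gene windows, 0.107% of those tested, by the limma interaction term. Each value is the difference between double and CSF3R cells minus that between Asxl1 guide and control cells. At Snai3 it was 0.62 (adjusted p = 0.0140): the window was covered to 0.04, 0.07 and 0.07 in Asxl1 guide libraries, against 0.595 and 0.535 in controls, and to 0.689 and 0.549 in double libraries, against 0.52, 0.485 and 0.5 in CSF3R libraries. At Itgb3, an integrin of platelets, it was 0.63 (adjusted p = 0.0140), with no peak in the Asxl1 guide or control libraries and 0.85 and 0.745 in double libraries, against 0.08, 0.215 and 0.195 in CSF3R libraries. At Zfp516, a zinc-finger gene, it was 0.66 (adjusted p = 0.0127), with at most 0.055 in Asxl1 guide libraries and 0.02 in controls, and 0.749 and 0.639 in double libraries, against at most 0.05 in CSF3R libraries; the double libraries alone reached the minimum of 0.2, so this window was tested only through the group where it is high. The number of such windows was 0 without any 1 Asxl1 guide library, without either control library and without double library 1, 5 without CSF3R library 3 and 38 without double library 2.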

How the results depend on the processing

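Covered length, peak number, mean width, the share of length in peaks over 5 kb and the share in control H3K27me3 kept their direction under every alternative run. Cutting to equal numbers of widest peaks itself favours wide control peaks, so it adds no check on length or width. Leaving out 1 of the 5 libraries gave log2 ratios of -0.70 to -0.45 for covered length, -0.59 to -0.35 for peak number, -0.16 to -0.07 for mean width and -0.14 to 0 for median width. It gave differences of -5.45 to -2.67 percentage points for peaks over 5 kb, 9.01 to 11.4 for control H3K27me3 and -1.71 to -0.32 for gene ends, and 58.5 to 63.8% of control regions kept. The share at gene ends, -1.04 percentage points within 5 kb, was 1.59 within 1 kb. Counting only control regions covered to at least 50%, 50.1% were kept.

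The lower windows numbered 6 with covered length as covariate, 57 with the replicate block, 393 with only the 5 libraries, 86 over 2 kb, 78 without peaks overlapping IgG peaks, and 7 to 280 leaving out 1 library. The higher windows numbered 4 by any overlap, 4 with the covariate, 31 with only the 5 libraries, 1 with the replicate block, 4 over whole genes, 9 without chromosome 1 (an alternative chosen after seeing the data), and 0 to 23 leaving out 1 library. Interactions numbered 114 by any overlap, 0 with the covariate (limma, 329 at unadjusted p under 0.05) and 0 to 38 leaving out 1 library. The lower regions numbered 724 by any overlap, 61 in at least 3 libraries, 71 with the covariate, 678 with only the 5 libraries, 18 with the replicate block and 135 to 480 leaving out 1 library. The higher regions numbered 137, 12, 12, 61 and 1 under the same settings, 86 with equal numbers of widest peaks, 25 without chromosome 1 and 28 to 96 leaving out 1 library. Any overlap scored each window or region 0 or 1, so values could be identical within every group, with no spread of their own. By it 178 windows were lower before adjustment, as many as had no cover with the Asxl1 guide and some in both controls. Its counts are therefore no separate check. The replicate numbers pair nothing in the labels, and same-numbered libraries did not deviate together (correlations -0.02 and 0.02 for the guide and control pairs).

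The sign turned over whole genes at Socs1 (0.0441) and Hoxa9 (-0.0370); over 2 kb at Hoxb6 (0.0728), Socs1 (0.0592), Hoxa9 (-0.118) and Zfp516 (-0.0218); and without peaks overlapping IgG peaks at Sema6b (0.23), Rsph6a (0.0808), Ecel1 (-0.12), Gata2 (0.22), Rara (0.10) and Cd4 (0.13). Leaving out 1 library, Hoxa9 ranged from -0.0667 to 0.0883 and Myc from -0.0383 to 0.015. An IgG peak lay in 43.8% of all tested windows. IgG removal dropped whole peaks, so a long peak was lost through a short overlap, and the cause of these changes was not tested. Peak lists without depth do not separate fewer reads from less mark.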

Other observations

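The 3 widest regions covered in all 5 libraries held peaks in both groups. Peaks covered 0.971, 0.981 and 0.984 of chr8:123536201-123624950, an 88750 bp region that holds Gas8, in the Asxl1 guide libraries, against 0.979 and 0.996 in the control libraries. The region at chr7:144392651-144474800, over Shank2 and Cttn, was covered to 0.62, 0.676 and 0.683 with the Asxl1 guide, against 0.751 and 0.722 in the control. The region at chr15:78667501-78739300, over Elfn2, was covered to 0.336, 0.404 and 0.469 with the Asxl1 guide, against 0.586 and 0.558 in the control. The groups overlapped at the first and not at the other two, and limma called none of the 3.

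Among the autosomes, chromosome 8 had the highest share of tested windows called lower, 22 of 157 (14.0%), against 6.48% of all tested windows, a description with no test. The Asxl1 guide libraries shared 0.460 to 0.493 of their combined covered length with each other (intersection over union), the control libraries 0.491, and an Asxl1 guide and a control library 0.362 to 0.412.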
